A study of Homo sapiens with 14 samples.

Results

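The 84 genes described here encode the proteins of the cytosolic ribosome. They were taken by symbol from the 55075 genes of the deposited tables: RPL or RPS followed by a number and at most 1 of the letters A, X or L, together with RPLP0, RPLP1, RPLP2 and RPSA. Each symbol had 1 row. By their symbols, 49 belong to the large subunit and 35 to the small subunit. The rule takes in the low-expressed paralogs RPL3L, RPL10L, RPL39L and RPS27L, and 81 of the 84 are protein coding in GENCODE release 29. RPS10L and RPS4L are listed there as processed pseudogenes.

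A ribosome is built from a small subunit, which reads the messenger RNA, and a large subunit, which joins amino acids, and each copy needs nearly 1 of every protein. Ribosomal protein messengers are among the most abundant of a growing cell, and most begin with a terminal oligopyrimidine tract (TOP), a run of C and T bases at the very start through which mTOR and the RNA-binding protein LARP1 control their translation. In T cell acute lymphoblastic leukemia (T-ALL), RPL5, RPL10, RPL11 and RPL22 are known targets of mutation or deletion, and NOTCH1 and MYC drive ribosome production. The genes have many processed pseudogenes, which are copies of the spliced messenger placed back into the genome.

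The study compared the histone demethylases JMJD3 (gene KDM6B) and UTX (gene KDM6A), which take methyl groups off lysine 27 on histone H3, in T-ALL. Cells of 2 established human T-ALL lines, CUTLL1 and CEM, grown in suspension, received a retrovirus with a short hairpin against JMJD3 (shJMJD3), against UTX (shUTX) or against Renilla luciferase (shRenilla), a gene that human cells lack. All cells were infected and none was left without a hairpin, each target had 1 hairpin label, and no time after infection is given in the labels. In CUTLL1 there were 3 shJMJD3, 2 shUTX and 3 shRenilla samples, and in CEM 2 of each, 14 in all.

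The tables hold 1 count column per hairpin and line, in which the authors pooled the samples, so within a line no value has a replicate. Column totals ran from 70280185 to 258014046 counts. The CUTLL1 control came in 2 versions, a larger column set beside shJMJD3 and a smaller one of 144394369 counts set beside shUTX. No gene had fewer counts in the larger than in the smaller, and subtraction gave a remainder of 113619677 counts. Levels below are given per 1000000 counts of the column total (CPM). KDM6B stood at 10.9 CPM in shJMJD3 of CUTLL1 against 18.8 in its control, and at 52.2 against 206 in CEM. KDM6A stood at 19.3 CPM in shUTX of CUTLL1 against 43.0 in its control, and at 51.5 against 136 in CEM. With the other hairpin, KDM6A stood at 86.7 CPM in CEM shJMJD3, also below 136, and at 32.5 in CUTLL1 shJMJD3 against 35.8. KDM6B stood at 28.2 CPM in CUTLL1 shUTX against 21.5, and at 198 in CEM shUTX against 206. The 6 T cell markers summed to between 1464 and 2630 CPM in every column, the B cell gene MS4A1 was at 0 in all of them, and myeloid, erythroid and fibroblast markers summed to at most 1.31 CPM. CD79A, a gene of the B cell receptor, stood at 34.4 to 74.7 CPM in CEM.

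How much of each coding sequence is shared with other genes bears on most values below, so it is shown first. Every 50-base stretch of the coding sequence, the length of a read here, was looked up in the transcripts of all other genes of GENCODE 29. A median of 48.8% of these windows per gene were found exactly elsewhere over the 81 members with a coding sequence. They were divided into 23 with under 20% shared, 35 with 20 to 80% and 23 with over 80%, limits that were set after the data had been seen but that use sequence alone. The following middle stretches, from GENCODE 29 transcripts on GRCh38, show both ends of this scale, with capitals for the bases in the closest other gene that differ from the member.
RPSA: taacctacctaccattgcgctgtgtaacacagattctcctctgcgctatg
RPS3A: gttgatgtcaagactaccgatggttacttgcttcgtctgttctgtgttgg
RPL28: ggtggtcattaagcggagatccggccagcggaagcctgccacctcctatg
AC113398.1: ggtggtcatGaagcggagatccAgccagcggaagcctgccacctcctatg
RPL11: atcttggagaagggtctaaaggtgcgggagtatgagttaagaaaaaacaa
AC113367.1: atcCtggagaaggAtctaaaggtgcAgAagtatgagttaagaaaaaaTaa
The RPSA stretch (coding bases 420 to 469; gene at chr3:39406689-39412542, + strand) occurs letter for letter in 2 other genes, of which RPSAP12 is a processed pseudogene. The RPS3A stretch (coding bases 373 to 422; gene at chr4:151099573-151104652, + strand) occurs in 3 others, RPS3AP26 among them. For RPL28 (coding bases 183 to 232; gene at chr19:55385345-55403250, + strand) the closest stretch, in AC113398.1, differed at 2 bases. For RPL11 (coding bases 244 to 293; gene at chr1:23691742-23696835, + strand) the closest, in AC113367.1, differed at 5. A 50-base read from the first pair can be placed in several genes without a mismatch, and one from the second pair in 1 gene. The sources used here do not give how the authors' counting treated reads with several places.

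The members together held 2.66% of the counts of CUTLL1 shJMJD3 and 2.23% of shUTX. They held 2.58% in the larger control column, 2.00% in the smaller one and 3.31% in the remainder. In CEM they held 3.09% in shJMJD3, 2.85% in shUTX and 2.44% in shRenilla. In bulk samples, fewer cells of a type and less RNA per cell cannot be told apart in such a share. The order within CUTLL1 followed the column more than the hairpin, since the remainder and the smaller control column, both shRenilla, lay furthest apart. Counts of the 511 ribosomal protein pseudogenes moved with it. They came to 31.8% of the members' counts in the remainder, 19.2% in shJMJD3 and 18.5% in the larger control column, but to 1.18% in shUTX and 1.10% in the smaller one. In CEM the figure was between 0.901% and 1.22%. Small RNA genes took 18.7% of all counts of the remainder, 11.7% of shJMJD3 and 9.33% of the larger control column, against 2.58% of shUTX, 1.97% of the smaller one and about 0.04% in CEM. Libraries were made from polyadenylated or from ribosomal-RNA-depleted RNA per the labels, which do not say which sample had which, so the part of RNA selection or of counting in these differences was not tested.

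Within the CUTLL1 control, members of shared sequence differed most. After TMM scaling (edgeR's trimmed mean of log ratios, which sets the bulk of genes to no difference), the median log2 ratio of the remainder to the smaller column was 0.19 for the 21 counted members with under 20% shared windows, 1.61 for the 35 with 20 to 80% and 4.27 for the 23 with over 80%. The median of all 18546 genes was -0.00. A gene is counted below as higher at 25% or more above the other column, and as lower at 20% or more below it, which is the same fold. Of the 82 members with at least 50 counts in either column, 69 were higher and 5 lower in the remainder, beside 31.9% of genes higher and 28.3% lower. Across the 80 members with a coding sequence and at least 50 counts in both columns together, the ratio ran with the share of windows found elsewhere at a Pearson r of 0.70 and a Spearman rho of 0.82. These are genes of the same 2 columns and no independent samples.

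RPL10, which joins the large subunit last, stood at 994 CPM in the remainder and 61.3 in the smaller column, with 492 in shJMJD3, 59.7 in shUTX, and 84.2, 83.9 and 96.8 in CEM shJMJD3, shUTX and shRenilla. RPSA, of the small subunit and also known as the laminin receptor, stood at 645 and 50.6 CPM in the 2 parts of the control, at 349 in shJMJD3, 51.1 in shUTX and 15.6 to 23.5 in CEM. RPS3A stood at 401 and 13.7 CPM in the 2 parts, 159 in shJMJD3, 11.2 in shUTX and 12.4 to 19.7 in CEM. In these genes the smaller control column and shUTX lay together at the low end, near CEM.

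All 23 members with over 80% shared windows showed that order, with both the smaller control column and shUTX below each of the larger column, the remainder and shJMJD3 in CPM. It was seen in 22 of the 35 with 20 to 80% and in 2 of the 23 with under 20%. In the last group, 16 of 23 had the opposite order. RPL11, which with RPL5 and the 5S RNA binds MDM2, stood at 1230.1 CPM in the smaller column and 652 in the remainder, at 939 in shJMJD3 and at 1395 in shUTX. RPS14, the small-subunit gene of the 5q deletion syndrome, stood at 454 and 427 CPM in the 2 parts, 445 in shJMJD3 and 501 in shUTX. Its values lay close together in all CUTLL1 columns.

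**Figure D1:**
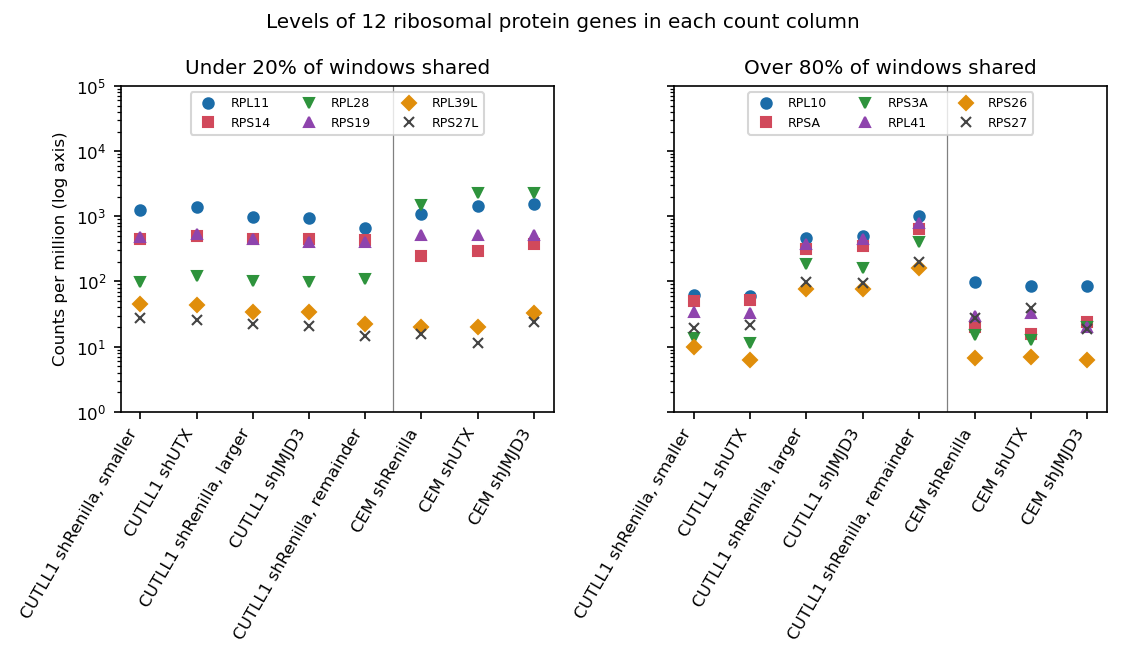
Counts per 1000000 (CPM, log axis) of 12 members in the 5 CUTLL1 columns and the 3 CEM columns, 1 point per column, with no replicates. The 6 genes with over 80% of windows shared stand high in the larger control column, its remainder and shJMJD3 of CUTLL1 and low in the other columns. The 6 with under 20% shared show no such step. All of these but RPL28 stand lower in those columns than in the smaller control column and shUTX. RPL11 lies at 652 to 976 against 1230 and 1395, while RPS14 differs little, at 427 to 501 in CUTLL1.

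Levels per length also followed shared sequence. In the CEM control the median was 1382 CPM per kb of coding sequence for members with under 20% shared windows, 466 for 20 to 80% and 54.8 for over 80%, and in the smaller CUTLL1 control column it was 1082, 381 and 46.1. The Spearman rho of level per kb with the share of windows was -0.73 in each of these columns over 78 members. RPL28 and RPLP1 were among the highest in the CEM control, at 3620 and 2345 CPM per kb. RPL7 and RPL21 were among the lowest with at least 50 counts, at 3.996 and 15.7, and at least 99.7% of the windows of each were shared. How far these levels reflect amounts of messenger or the counting of shared reads was not tested. Members of unequal sharing should thus not be compared by level as amounts of messenger. Over 78 members, control levels per kb in CEM and in the smaller CUTLL1 column had a Spearman rho of 0.89, and over the 21 of them with under 20% shared the rho was 0.55. RPL28 broke this order: it stood at 1499 CPM in the CEM control but at 98.0 in the smaller and 103 in the larger CUTLL1 column, and at 97.3 and 120 in CUTLL1 shJMJD3 and shUTX against 2303 and 2299.9 in CEM. Its log2 ratio of the smaller CUTLL1 to the CEM control column, -3.64, was the lowest of the 79 members with at least 50 counts, of which 30 were higher and 22 lower in CUTLL1, beside 39.7% of genes higher and 38.4% lower.

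In CEM, most ribosomal protein messengers were higher with shJMJD3 than with shRenilla. Of the 79 members with at least 50 counts in either column, 61 were higher and 0 lower, beside 32.7% of 16998 genes higher and 34.4% lower. RPL3L, RPL10L and RPS10L were among those not counted, each under 50 counts in both columns. The median log2 ratio was 0.62, with an interquartile range of 0.36 to 0.85, and the median of all genes was -0.02. It was 0.73 over the 21 members with under 20% shared windows, 0.70 over those with 20 to 80% and 0.45 over those with over 80%, so the difference was also present where reads have 1 place. Both subunits took part, with medians of 0.62 for the large and 0.65 for the small. Scaled to column totals in place of TMM, every ratio in this comparison is lower by 0.31, the median is 0.31, and 38 members were higher and 5 lower, so members between 0 and 0.31 change sign with the scaling. Each column is 1 pooled value, so the p-values of a within-line test would compare libraries and not conditions. In the authors' deposited table for these columns, 72 of 81 members had a p-value under 0.001, beside 54.4% of genes.

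The highest ratios in CEM belonged to RPS29 and RPS3, which lie on the head of the small subunit. RPS29 stood at 74.9 CPM in shRenilla, 112 in shUTX and 257 in shJMJD3, a log2 ratio of shJMJD3 to shRenilla of 2.09 (95% interval 2.05 to 2.12, exact binomial, counting error only). RPS3 stood at 341, 359 and 709 CPM in the same order, a ratio of 1.37 (1.35 to 1.39). For RPS3 shUTX lay near shRenilla, while for RPS29 it stood above shRenilla by a log2 ratio of 0.62, and for both genes shJMJD3 was the highest of the 3. The lowest belonged to RPL41, the smallest protein of the ribosome, at 29.7, 32.3 and 19.8 CPM (log2 ratio -0.28, interval -0.37 to -0.18), and to RPS27, at 27.2, 39.0 and 18.7 CPM (-0.23, interval -0.33 to -0.14). Every window of these 2 genes is shared with other genes.

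**Figure D2:**
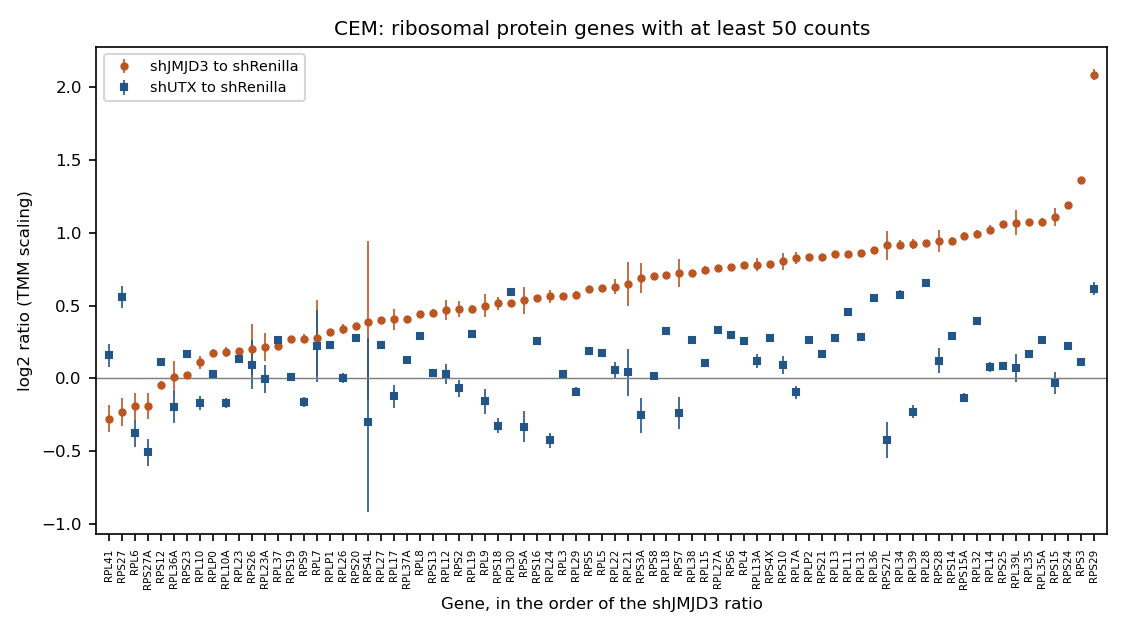
TMM-scaled log2 ratios in CEM of 77 of the 79 members with at least 50 counts, of shJMJD3 (circles) and of shUTX (squares) to the same shRenilla column, with genes in the order of the shJMJD3 ratio and bars for exact binomial 95% intervals (counting error only). The shJMJD3 ratios run from -0.28 for RPL41 to 2.09 for RPS29 with 72 of 77 above 0, and the shUTX ratios have a median of 0.12.

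In CUTLL1 the same comparison gave smaller values. The median log2 ratio of shJMJD3 to the larger control column was 0.18 over 83 members, all but RPL10L, and 17 were higher and 0 lower, beside 18.1% of 19772 genes higher and 17.4% lower. The count is near the share of all genes. The median was 0.10 for members with under 20% shared windows, 0.19 for 20 to 80% and 0.29 for over 80%. It also turned on the control. Against the smaller column it was 1.07, and against the remainder -0.64. Over the members with under 20% shared windows it was 0.20 and 0.02. Scaled to column totals, every ratio is lower by 0.15, the median is 0.025 and 4 members were higher. In the authors' deposited table, 70 of 84 members had a p-value under 0.001, beside 40.2% of genes.

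**Figure D3:**
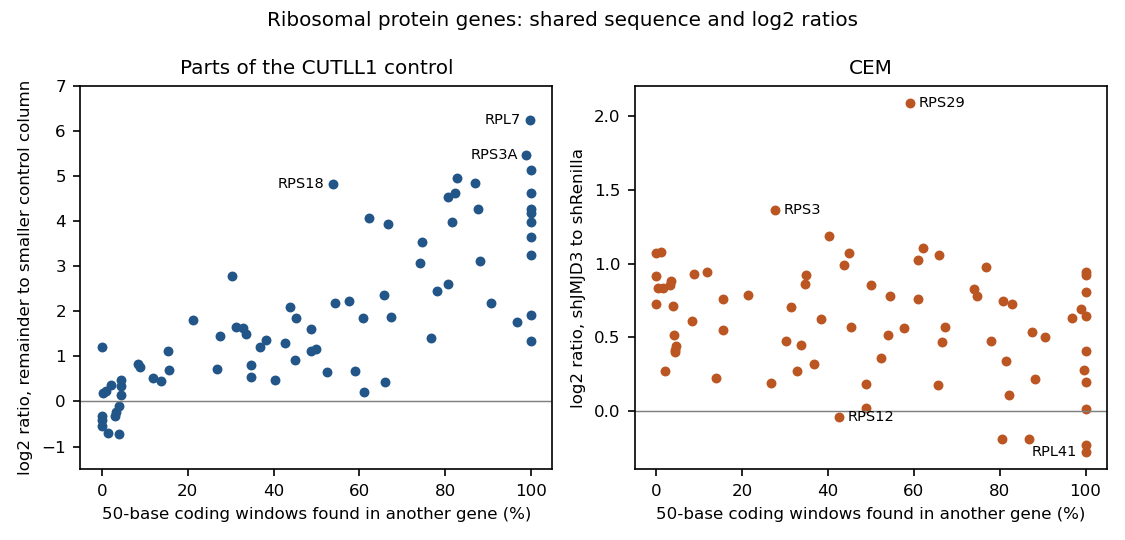
Each point is a member with a coding sequence, placed by the percent of its 50-base coding windows found in another gene. On the left, the log2 ratio of the remainder to the smaller part of the CUTLL1 control runs with this percent (Spearman rho 0.82 over 80 members, of which 77 are drawn). On the right, the ratio of shJMJD3 to shRenilla in CEM does not climb with it (rho -0.24 over 78 members, of which 76 are drawn).

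Most ratios of shJMJD3 to shRenilla lay above 0 in both lines, in unlike order. Of 79 members counted in both, 68 had a ratio above 0 in both lines and 10 were higher in both by the fold used. Of all genes, 18.1% were higher in CUTLL1 and 32.7% in CEM. Shares of all genes above 0 or higher in both lines were not counted, so 68 and 10 have no background here. The size of the ratio in one line did not go with that in the other, with a Pearson r of -0.22 and a Spearman rho of -0.19. The highest smaller ratios belonged to RPS10, a small-subunit protein mutated in Diamond-Blackfan anemia, RPL12, at the base of the stalk, RPL13A and RPL39. All windows of RPS10 and RPL39 are shared, with 66.6% of those of RPL12 and 74.6% of those of RPL13A. RPS10 stood at 262 CPM in CUTLL1 shJMJD3 and 211 in the larger control column, and at 66.4 and 47.1 in CEM, with log2 ratios of 0.46 and 0.80. RPL39 stood at 222 and 185 CPM in CUTLL1 and at 179 and 117 in CEM, with ratios of 0.42 and 0.92. RPL12 had ratios of 0.45 and 0.47, and RPL13A of 0.43 and 0.78. In CUTLL1 all 4 lay below the remainder of the control, RPS10 at -0.86 and RPL39 at -0.30, so their direction there rests on which control column is used. The lowest larger ratios belonged to RPS12, at -0.01 and -0.04, RPS23, at -0.02 and 0.02, RPS27, at 0.11 and -0.23, and RPS26, at 0.17 and 0.20.

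No member passed the test across both lines. In edgeR's quasi-likelihood F test with line as a block, which takes the 2 lines as replicates and leaves 2 residual degrees of freedom, 0 of 83 members and 0 of 24003 genes had a Benjamini-Hochberg adjusted p under 0.05 for shJMJD3 against shRenilla. The background share called is 0 percent, the smallest adjusted p of a member was 0.800, and DESeq2 called 0 members and 110 genes, 0.535%. At an unadjusted p under 0.05 there was 1 member, RPL39, all of whose windows are shared, beside 3.9% of genes. Its fitted log2 difference was 0.68 with a standard error of 0.23 (edgeR p 0.031, adjusted p 0.800). The fitted difference was above 0 in 81 of 83 members, against 50.2% of all genes, with a median of 0.41.

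For the members known from T-ALL, 3 of the 4 ratios for shJMJD3 were larger in CEM than in CUTLL1, a difference that was not tested. RPL11 stood at 1072 CPM in CEM shRenilla, 1434 in shUTX and 1563 in shJMJD3, a log2 ratio of 0.85 for shJMJD3 and 0.46 for shUTX. In CUTLL1 the ratios of shJMJD3 and shUTX to their own control columns were 0.10 and 0.22. RPL5, its partner, stood at 424, 466 and 526 CPM in CEM, with ratios of 0.62 and 0.17, and had ratios of 0.02 and 0.19 in CUTLL1. RPL22, for which 96.7% of windows are shared, stood at 61.3, 62.2 and 76.5 CPM in CEM, with ratios of 0.63 and 0.06, and had 0.26 and 0.23 in CUTLL1. RPL10 had ratios of 0.11 and -0.17 in CEM and of 0.21 and 0.00 in CUTLL1. The fitted differences of shJMJD3 to shRenilla over both lines were 0.49 (SE 0.33) for RPL11, 0.32 (0.27) for RPL5, 0.44 (0.22) for RPL22 and 0.18 (0.77) for RPL10, none of which passed edgeR's test.

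RPS14, of the 5q deletion, and RPL35A and RPS19, a pair of the many members mutated in Diamond-Blackfan anemia, were chosen as examples of disease genes and do not stand for the whole set. RPS14 and RPL35A stood higher in CEM shJMJD3 and RPS19 barely so. RPS14 stood at 245 CPM in CEM shRenilla, 293 in shUTX and 381 in shJMJD3, a log2 ratio of 0.95 for shJMJD3. RPL35A stood at 268, 314 and 456 CPM, a ratio of 1.08. RPS19 stood at 525, 516 and 511 CPM, a ratio of 0.27 after TMM scaling and of -0.04 after scaling to column totals. In CUTLL1 the ratios of shJMJD3 to shRenilla were 0.16, 0.22 and 0.01. Under 20% of the windows of these 3 genes are shared.

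The stalk, which recruits the elongation factors, is made of RPLP0, RPLP1 and RPLP2, and their 3 messengers gave unequal ratios. In CEM, RPLP2 stood at 572 CPM in shRenilla, 669.9 in shUTX and 820.3 in shJMJD3, a log2 ratio of 0.83 for shJMJD3 and 0.26 for shUTX. RPLP1 stood at 809, 927 and 812 CPM, with ratios of 0.32 and 0.23, and RPLP0 at 235, 234 and 214 CPM, with 0.17 and 0.03. In CUTLL1 the ratios of shJMJD3 to shRenilla were 0.11 for RPLP2, 0.38 for RPLP1 and 0.23 for RPLP0.

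The paralogs RPL39L and RPS27L were expressed in both lines, and RPL3L and RPL10L hardly. RPL39L, known from testis, stood at 33.3 CPM in CEM shJMJD3 and 19.7 in shRenilla, a log2 ratio of 1.07 beside 0.92 for RPL39. It had 34.1 CPM in CUTLL1 shJMJD3 and 34.4 in the larger control column, a ratio of 0.14 beside 0.42. All of the windows of RPL39 are shared and none of those of RPL39L. RPS27L, a known p53 target, stood at 23.5 CPM in CEM shJMJD3, 11.3 in shUTX and 15.5 in shRenilla, with ratios of 0.91 for shJMJD3 and -0.42 for shUTX. Its parent RPS27 had -0.23 and 0.56, the opposite signs, but all of the windows of RPS27 are shared and none of those of RPS27L. RPL3L, known from muscle, had 56 counts in CUTLL1 shJMJD3, 61 in the larger control column and 53 in shUTX, and 24, 5 and 1 in CEM shJMJD3, shUTX and shRenilla. RPL10L had at most 4 counts in any column.

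With shUTX the members lay closer to the control than with shJMJD3 in CEM. In CUTLL1 the medians of both hairpins were alike, and the full range, but not the interquartile range, was wider with shUTX. In CEM the median log2 ratio of shUTX to shRenilla was 0.12 over 79 members, with 11 higher and 6 lower, beside 9.52% of 16791 genes higher and 10.1% lower. In CUTLL1 it was 0.16 over 79 members, with 7 higher and 8 lower, beside 11.4% of 16886 genes higher and 9.57% lower. The CUTLL1 ratios ran from -0.71 to 1.44 with shUTX and from -0.07 to 0.58 with shJMJD3, each against the control column of its own table. Their interquartile ranges were 0.09 to 0.24 and 0.09 to 0.29 in the same order. RPL3L gave the highest value with both hairpins, from only 53 counts in shUTX and 27 in the smaller control column. The shUTX counts of higher and lower members lie near the background. RPL10L, RPS10L and RPS4L were among the members under 50 counts in both CUTLL1 columns. The members with under 20% shared windows had medians of 0.26 in CEM and 0.19 in CUTLL1, with 20 of 21 and 21 of 22 above 0, and those with over 80% had 0.00 and -0.02. Shares of all genes above 0 within each line are not given here, so these sign counts have no background. In the edgeR fit over both lines, 61 of 81 members and 48.5% of all genes had a difference above 0. Against the larger control column the CUTLL1 median was -0.41 over 83 members and 0.28 over those with under 20% shared, and against the remainder it was -1.40 and 0.07. In the authors' deposited tables, 59 of 81 members in CEM and 70 of 82 in CUTLL1 had a p-value under 0.001, beside 25.8% and 27.4% of genes. Across both lines, 0 of 81 members and 0 of 23112 genes passed edgeR's test (background 0 percent), 0 members and 39 genes, 0.169%, had an unadjusted p under 0.05, and DESeq2 called 4 genes and 0 members.

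The largest smaller ratios of shUTX belonged to RPL28 and RPS29. RPL28 stood at 1499 CPM in CEM shRenilla, 2299.9 in shUTX and 2303 in shJMJD3, with log2 ratios of 0.65 (interval 0.64 to 0.66) and 0.93. It had a ratio of 0.33 for shUTX and 0.07 for shJMJD3 in CUTLL1. RPS29 had ratios of shUTX to shRenilla of 0.62 in CEM and 0.30 in CUTLL1. RPL27A, at 0.33 and 0.29, and RPS4X, the X-linked form of a small-subunit protein, at 0.27 and 0.31, followed. The lowest belonged to RPS27A, which is made as a fusion with ubiquitin, at -0.51 in CEM and -0.40 in CUTLL1, to RPL6, at -0.38 and -0.35, to RPS3A, at -0.25 and -0.25, and to RPS7, at -0.24 and -0.34. Over 80% of the windows of each of these 4 are shared. RPL24 stood at -0.43 in CEM and 0.14 in CUTLL1, and this difference between lines was not tested. RPL36A, at -0.71, and RPS26, at -0.62, were the lowest in CUTLL1, and both are shared in all windows. Across 78 members counted in both lines, the shUTX ratios had a Pearson r of 0.43 and a Spearman rho of 0.40, and 52 were above 0 in both. Genes outside the members were not counted in this way, so the 52 have no background.

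Set directly against each other, shJMJD3 lay above shUTX in both lines, with very different spread. In CEM the median log2 ratio was 0.48 over 79 members, with 51 higher and 2 lower, beside 32.7% of 16229 genes higher and 34.3% lower. In CUTLL1 it was 0.66 over 83 members, with 47 higher and 8 lower, beside 21.9% of 18287 genes higher and 28.2% lower, and a median of all genes of -0.12. The CUTLL1 value went with shared sequence, at 2.96 for members with over 80% of windows shared, 0.62 for 20 to 80% and -0.17 for under 20%, with a Spearman rho of 0.82 over 80 members. A member can pass the count limit there through shJMJD3 alone. In CEM the same 3 medians were 0.52, 0.51 and 0.36, all of 1 direction. In the authors' deposited tables, 66 of 81 members in CEM and 80 of 83 in CUTLL1 had a p-value under 0.001, beside 53% and 51.5% of genes.

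At a larger fold of 1.5, the counts of higher and lower members were 41 and 0 for shJMJD3 against shRenilla in CEM, beside 22.4% and 23.9% of genes, and 0 and 0 in CUTLL1, beside 8.63% and 7.23%. For shUTX against shRenilla they were 3 and 0 in CEM, beside 3.32% and 4.05%, and 1 and 2 in CUTLL1, beside 3.5% and 2.27%. For shJMJD3 against shUTX they were 29 and 1 in CEM, beside 22.2% and 23.3%, and 44 and 0 in CUTLL1, beside 17.3% and 10.2%.

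Across lines, 0 of 83 members and 0 of 24003 genes passed edgeR's test for shJMJD3 against shUTX (background 0 percent). An unadjusted p under 0.05 was found for 16 members, all higher in shJMJD3, beside 8.1% of genes. For 14 of them at least 57.6% of windows are shared. DESeq2 called 286 genes, 1.34%, and 1 member, RPL24, with a log2 difference of 1.10 and an adjusted p of 0.0163. In edgeR RPL24 had an adjusted p of 0.506. RPL24 stood at 101 CPM in shJMJD3, 61.6 in shUTX and 84.8 in shRenilla of CEM, and at 136 in shJMJD3 and 68.7 in shUTX of CUTLL1.

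The genes around the ribosome did not all follow its proteins. Of 19 other genes with a known TOP messenger, among them elongation and initiation factors, 15 were higher and 2 lower for shJMJD3 against shRenilla in CEM, with a median log2 ratio of 0.49, beside 32.7% of all genes higher and 34.4% lower. In CUTLL1, 4 were higher and none lower, with a median of 0.24, beside 18.1% of all genes higher and 17.4% lower. With the smaller column as control, that CUTLL1 value became 0.45, with 12 higher and 0 lower, and with the remainder it became -0.16, with 6 higher and 8 lower. Shares of all genes are given only for the control column that the authors paired with each hairpin. Counts against another control column thus have no background here. EIF3L, an initiation factor subunit, had 0.42 in CUTLL1 and 0.70 in CEM, and TPT1, a growth protein, 0.16 and -0.58. The 20 genes of ribosome biogenesis, which build the ribosome in the nucleolus, mostly lay below the control. Their median was -0.33 in CUTLL1, with none higher and 11 lower, and -0.48 in CEM, with 1 higher and 14 lower. In CUTLL1 it changed to -0.17 with the smaller column as control, where 1 was higher and 4 lower. With the remainder it changed to -0.61, where 0 were higher and 17 lower, again counts without a background. MYBBP1A, a nucleolar MYB-binding protein, had -0.68 and -1.29, and POLR1A, the large subunit of RNA polymerase I, -0.55 and -1.10. Ratios above 0 were found for 3 of the 20 in CUTLL1 and 4 in CEM, among them FBL, which methylates ribosomal RNA, at 0.05 and 0.73, and NOP16, at 0.04 and 0.03. With shUTX the biogenesis median was -0.42 in CUTLL1, with 14 of 20 lower beside 9.57% of all genes, and 0.03 in CEM, with 1 lower and 1 higher beside 10.1% and 9.52%. Against the remainder the CUTLL1 value was -0.81, with 19 lower, a count without a background. The mitochondrial ribosomal proteins, 77 counted of 78, had a median of -0.04 in CUTLL1 shJMJD3 and 0.35 in CEM shJMJD3, where 42 were higher and 5 lower. For shUTX it was -0.12 and -0.01. The 12 genes of growth signalling, such as those of the mTOR pathway, had medians of -0.09 in CUTLL1 and -0.41 in CEM for shJMJD3 and of -0.10 and 0.00 for shUTX. The 4 paralogs outside the symbol rule had -0.12 and 0.18, then -0.21 and -0.20. The pseudogenes with enough counts had 0.24 and 0.09, then 0.24 and -0.22. For shJMJD3 in CUTLL1 the medians of these 4 paralogs and of the pseudogenes were 0.80 and 5.29 against the smaller control column and -0.87 and -1.13 against the remainder.

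**Figure D4:**
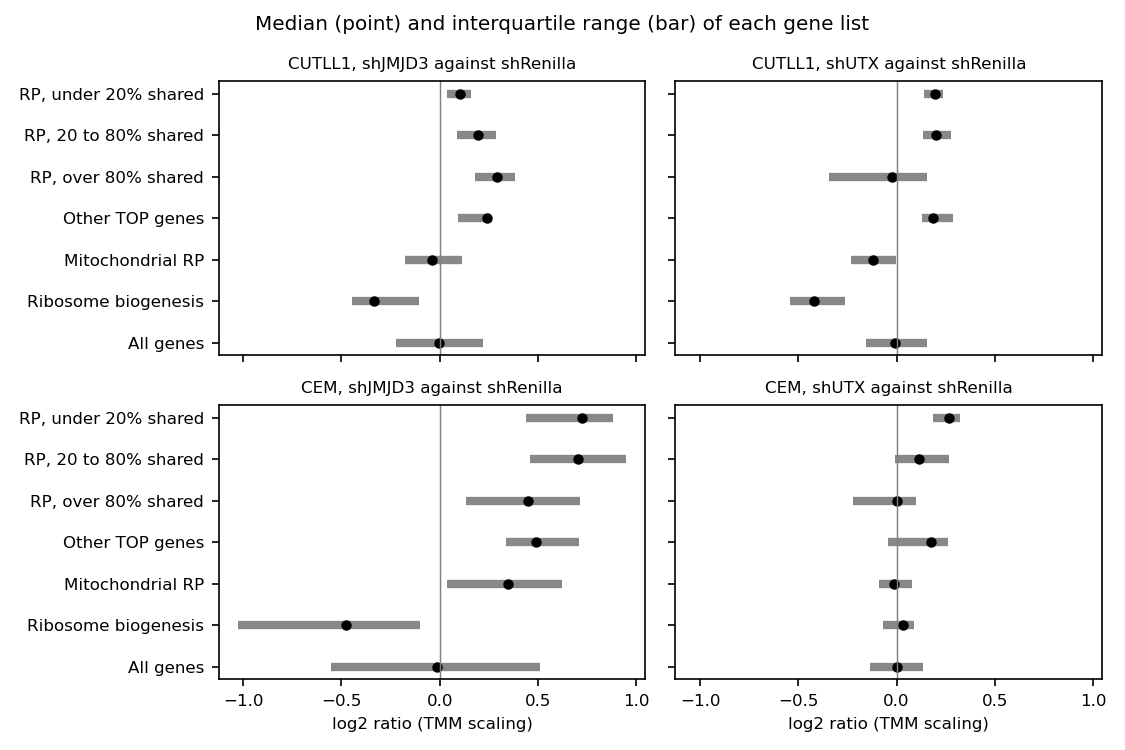
Median (point) and interquartile range (bar) of TMM-scaled log2 ratios for ribosomal protein (RP) genes split by shared windows, other TOP genes, mitochondrial RP genes, ribosome biogenesis genes and all genes with at least 50 counts, in each line and for each hairpin against its own control column. In CEM shJMJD3 the 3 groups of RP genes have medians of 0.45 to 0.73 and the biogenesis genes -0.48.

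The members share a feature that the symbol rule did not use. Of 64 members with an annotated start in RefSeq (GRCh38.p14), 46, or 71.9%, had a start that begins, on the gene's strand, with C followed by 4 bases that are each C or T. The same was true of 1404 of 27305 genes, or 5.14%, of 11 of 12 other TOP translation genes, and of 6 of 69 mitochondrial ribosomal protein genes. The 20 bases around 8 starts follow, 5 before and 15 from the start, with the unbroken C and T run in capitals, chosen because these genes lead the results above.
RPS14: ccactCTCTCTTTCCggtgt
RPLP2: gccttCCTTTTCCTCCCTgt
RPL35A: tcgtcCTTCTCTTaccgcca
RPL28: ccttcCTCTTTCCgtctcag
RPL11: gctttCTCTTCCTgctctcc
RPS27: tcgctCCTTTCCggcggtga
RPS27L: cgagcgcagatcgcttgcag
RPS29: gcagctggcagcggtggttg
They lie at chr5:150449725-150449744 (- strand) for RPS14, chr11:809962-809981 (+) for RPLP2, chr3:197950185-197950204 (+) for RPL35A and chr19:55385927-55385946 (+) for RPL28. Those of RPL11, RPS27, RPS27L and RPS29 lie at chr1:23691801-23691820 (+), chr1:153990757-153990776 (+), chr15:63157463-63157482 (-) and chr14:49598696-49598715 (-). RPS27 begins with the run and its paralog RPS27L does not. The annotated start of RPS29, the member with the highest ratio in CEM, lacks the run, which says only that these letters are not at this annotated base. The ratios did not separate by it. In CEM shJMJD3 the median was 0.70 over the 46 members with the run and 0.72 over the 17 counted without it, and in CUTLL1 shJMJD3 it was 0.19 and 0.27. Of all members, 28 hold at least 1 small nucleolar RNA gene in an intron. Their median in CEM shJMJD3 was 0.59, beside 0.63 for the 51 counted members that hold none, and in CUTLL1 it was 0.19 and 0.17.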

How the data were processed

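RNA of 14 samples was sequenced as 50-nt single reads. The authors deposited raw counts per gene in 6 tables, 1 for each line and pair of hairpins. Per the labels, DEGseq made them. The deposited p-values of DEGseq are used only as the authors' calls. In the submitters' processing notes, CASAVA, TopHat and hg19 are named. The counting program, its annotation, strand setting and treatment of reads with several places, and the samples that a column pools, were not given in the sources used here. Samples are not said to be separate cultures, and p-values across lines measure only the spread between 2 lines.

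Genes were matched by Ensembl identifier to GENCODE 29, which found 48932 of 55075, and missing counts were read as 0. Within a line, log2 ratios used TMM scaling, a prior count of 2 and a minimum of 50 counts in either column, with exact binomial 95% intervals (counting error only). Each hairpin was set against the control column the authors paired it with. Across lines, edgeR 4.0.16 fitted quasi-likelihood models to 6 columns with line as a block, adjusted by Benjamini-Hochberg over all genes, with DESeq2 1.42.0 as an alternative (R 4.3.3). The edgeR step was tested on simulated data. Shared windows were searched in 206694 transcripts of GENCODE 29. Alternatives were column totals, DESeq2 size factors, protein-coding totals, a prior count of 0.5, a minimum of 10 counts or none, a fold of 1.5, added pseudogene counts and each version of the CUTLL1 control.

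The members and gene lists were chosen with earlier results of these data known. A rule named the targeted genes, members known from T-ALL, Diamond-Blackfan anemia and the 5q deletion, paralogs with their parents, stalk proteins, the 4 highest and 4 lowest over both lines, the 2 highest and lowest in each line, and the 3 highest and lowest by level. RPSA, RPS3A and RPL10 beside the parts of the control, RPL24 in the last comparison, and the genes whose sequences are printed were picked after their values were seen. Some genes that the rule names are not reported here, though sums, counts and medians over the members include them.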

Additional observations from a re-analysis of the deposited data

Results flagged for a closer look

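For 7 members the ratio of shJMJD3 to shUTX lay apart in opposite directions by the fold used (25% above or 20% below) in the 2 lines, and with 1 column per hairpin and line this difference was not tested. Of all genes, 21.9% were higher and 28.2% lower in CUTLL1, and 32.7% higher and 34.3% lower in CEM. The share of all genes that were opposite in the 2 lines was not counted, so the 7 may be no more than the background. Of these 7 members, 5 were lower in CUTLL1 and higher in CEM. The log2 ratios in CUTLL1 and CEM were -0.34 and 0.36 for RPL18, -0.39 and 0.37 for RPL11, -0.36 and 0.40 for RPL27A, -0.58 and 0.64 for RPS21, and -0.33 and 0.44 for RPL38. RPL18, RPL11, RPS21 and RPL38 have under 20% of their windows shared with other genes, and RPL27A has 61.1%. The other 2 were higher in CUTLL1 and lower in CEM, at 2.36 and -0.82 for RPS27 and 3.99 and -0.46 for RPL41, and all windows of both are shared.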

How the results depend on the processing

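No paired analysis was possible because the count columns pool the samples and carry no replicate numbers, and for the same reason no sample could be left out. The choice of CUTLL1 control column changed most. With shJMJD3, the member median of 0.18 was 1.07 against the smaller column and -0.64 against the remainder, and 66 and 62 members were apart by the fold used (25% above or 20% below) in place of 17. With shUTX, the median of 0.16 was -0.41 against the larger column and -1.40 against the remainder, with 53 and 66 members apart in place of 15. Shares of all genes apart against these other control columns are not given, so the member counts against them have no background. With the remainder as control, the ratio of shJMJD3 to it turned to -0.91 for RPL12, -0.88 for RPL13A, -1.04 for RPL36A, -0.30 for RPL39, -0.087 for RPL3L, -1.02 for RPL41, -0.27 for RPLP1, -0.86 for RPS10 and -0.53 for RPS4X. The ratio of shUTX to the remainder turned to -0.39 for RPL28, -0.67 for RPLP1, -0.23 for RPS16 and -1.04 for RPS3, which was -0.15 against the larger column. Column totals gave member medians of 0.025 and 0.12 for shJMJD3 and shUTX in CUTLL1, 0.31 for shJMJD3 in CEM and 0.24 for shJMJD3 against shUTX in CEM, and 4 members apart for shJMJD3 in CUTLL1. The split of higher and lower members was then 4 and 10 for shUTX and 45 and 15 for shJMJD3 against shUTX in CUTLL1, and 38 and 5 for shJMJD3 and 31 and 5 for shJMJD3 against shUTX in CEM. DESeq2 size factors gave 16 and 4 for shUTX in CEM. Protein-coding totals gave CEM medians of 0.30 for shJMJD3 against shRenilla and 0.22 against shUTX, with 35 members apart in the latter. At 1.5-fold, 0 and 3 members were apart in CUTLL1 for shJMJD3 and shUTX, and 3 in CEM for shUTX and 30 for shJMJD3 against shUTX. Over members with under 20% shared windows, an alternative chosen after seeing the data, medians were 0.10 for shJMJD3 in CUTLL1, -0.17 for shJMJD3 against shUTX there, and 0.26 for shUTX and 0.36 for shJMJD3 against shUTX in CEM. Members apart were then 2, 3 and 7 in CUTLL1 for shJMJD3, shUTX and the 2 against each other, and 19, 7 and 11 in CEM, of 22 members that entered in CUTLL1 and 21 in CEM. For shJMJD3 against shUTX in CUTLL1 the split went from 47 higher and 8 lower to 0 higher and 7 lower. Across lines, shJMJD3 against shUTX gave 1 member with column totals, 2 with no low-count filter and 1 with DESeq2 (RPL24), in place of 0. As a percent of protein-coding counts, the members' share was 3.97 in CUTLL1 shJMJD3, 2.83 in shUTX, 3.57 and 2.45 in the larger and smaller control columns, 5.51 in the remainder, and 3.29, 3.06 and 2.62 in CEM shJMJD3, shUTX and shRenilla. With pseudogene counts added, it was 3.17, 2.26, 3.05, 2.03, 4.36, 3.13, 2.88 and 2.47 percent in the same order. The cause of these changes was not tested. The remaining 92 comparisons of summary values stayed within their limits, and no named member changed direction by scaling, prior count or pseudogene counts among those apart by the fold used.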

Other observations

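The ratio of shUTX to shRenilla in CEM ran with the level of the member in the CEM control, at a Pearson r of 0.56 and a Spearman rho of 0.59 over 79 members, whereas that of shJMJD3 did not, at 0.04 and 0.07. Both ratios share the control column with the level, and level goes with shared windows, so the points are not independent. The ratio of large-subunit to small-subunit counts was 1.37 to 1.496 in the CUTLL1 columns and 1.68 to 1.82 in CEM.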
